A study of Mus musculus with 6 samples.

Results

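Complex I (NADH:ubiquinone oxidoreductase) and complex II (succinate dehydrogenase) are the entry points through which NADH and succinate pass electrons to ubiquinone in the inner mitochondrial membrane. Complex I has an N module that oxidises NADH, a Q module that reduces ubiquinone, and a proton-pumping membrane arm; its core subunits are conserved in bacteria and the supernumerary subunits surround them. Complex II also catalyses a step of the citric acid cycle, and inherited loss of its subunits is known to cause pheochromocytoma and paraganglioma, tumours of chromaffin and related cells. The genes were chosen by name: every symbol beginning with Ndufa, Ndufb, Ndufc, Ndufs or Ndufv, and Sdha, Sdhb, Sdhc and Sdhd. The array held 89 clones of 45 such genes, among 35896 clones and 11837 named genes in all.

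The name prefixes also took in assembly factors (Ndufaf1, Ndufaf3, Ndufaf4, Ndufaf5, Ndufaf7 and Ndufaf8), the complex IV subunit Ndufa4 with its paralog Ndufa4l2, and the pseudogene Ndufs5-ps. No clone was assigned to Sdhc, the other membrane anchor of complex II. Of the 89 clones, 73 clones of 43 genes were measured on at least 4 arrays and tested. The 1 clone each of Ndufa2 and Ndufaf7 was not. Signals here are those left after subtraction of the local background (net signals). Of the 16 untested clones, 12 had a net wild-type signal smaller than that background on at least 4 arrays. The 73 clones therefore leave out the faintest members.

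Adrenal gland total RNA was compared between mice with both copies of the PACAP gene (PACAP +/+) and mice with neither (PACAP -/-), both 129XC57BL6 F2 hybrids. PACAP, encoded by Adcyap1, is the neuropeptide released by the splanchnic nerve onto the chromaffin cells of the adrenal medulla, and the series asked which adrenal genes depend on it. On each of 6 spotted cDNA arrays wild-type RNA carried Cy5 (red) and knockout RNA Cy3 (green); no array had the dyes exchanged, so a clone's dye effect and its genotype effect cannot be told apart. The labels number the arrays as repeats, without stating the age or sex of the mice or whether separate animals were used, so p-values measure only the spread between arrays, which may be technical. The number of arrays limits the precision.

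The median wild-type signal over the local background was 4.79, 1.37, 2.07, 1.15, 2.11 and 1.65 on arrays 1 to 6, and that of the knockout signal lay between 5.39 and 7.07. Such ratios divide a net signal by the background already taken from it. A value under 1 therefore marks a faint spot and does not by itself mean that no signal was found. The genotype labels could not be checked on Adcyap1 itself, since its 1 clone passed the quality filter on only 2 arrays. Its net wild-type signal was smaller than the background on 4 arrays. Without the quality filter its log2 ratio was -0.18 ± 0.24 (SE, n = 6, limma adjusted p = 0.606). All 12 clones of 7 adrenal cortex genes and all 9 clones of 6 chromaffin genes had a knockout signal above background on every array. So did all 7 liver clones, the 2 skeletal muscle clones and the 1 kidney clone, so this check cannot test the tissue label. At 5 times the background on every array the counts were 7 of 12 adrenal cortex and 7 of 9 chromaffin clones. They were 2 of 7 for liver, 1 of 2 for skeletal muscle and 0 of 1 for kidney. Of 11 tested adrenal cortex clones 6 were higher in the knockout and 0 lower, where 16.2% and 14.2% of all tested clones were. With print-tip loess, which normalizes each printed area of the slide separately, 4 were higher and 0 lower, where 6.62% and 4.53% of all clones were. Hsd3b1, an enzyme of steroid synthesis, was at 1.65 in its clone of print block 48, and at 0.75 with print-tip loess. Of 9 chromaffin clones 7 were higher and 1 lower, and 5 and 1 with print-tip loess. Chgb, a granule protein, was at 1.08 in its clone of print block 39, and at 0.68 with print-tip loess. Brown adipocytes, rich in mitochondria, were represented by 1 tested clone, Elovl3, at 0.46 and, with print-tip loess, -0.07; the defining gene Ucp1 had no clone. What part these cell types have in the results was not tested. In bulk RNA, fewer cells of a type and less RNA per cell cannot be told apart.

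All ratios are log2 of knockout over wild type after loess within each array, with the standard error of limma, followed where stated by the value after print-tip loess, which fits a separate curve to each of the 48 areas printed by 1 pin (print blocks). Respiratory complex I and II clones leaned higher in the knockout, and a smaller share of them was lower than on the array as a whole. With loess per array, 16 clones lay higher in the knockout, 2 lay lower and 55 failed the threshold (limma, adjusted p under 0.05), or 24.7% past the threshold, where 30.3% of all 28614 tested clones passed. By direction, 21.9% of the complex I and II clones were higher and 2.74% lower, where 16.2% and 14.2% of all clones were. The median ratio was 0.18 over the 73 clones and 0.02 over all clones. Positive values made up 51 of 73 clones, against 51.6% of all clones. With print-tip loess 9 clones were higher and 0 lower, or 12.3%, where 11.2% of all clones passed, 6.62% as higher and 4.53% as lower. The median was then 0.16, with 0.00 over all clones, and 55 of 73 clones were positive, against 49.7% of all. At an unadjusted p under 0.05, 26 of the 73 clones were higher and 1 was lower with print-tip loess, where 17.6% and 15.1% of all clones were. The median of the complex I and II clones was therefore above that of all clones in both normalizations.

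Which clones passed depended on the normalization. Of 18 clones past the threshold with loess per array, 5 also passed with print-tip loess: both clones of Ndufc1, and 1 clone each of Ndufv3, Ndufs7 and Ndufa13. The other 13 passed with loess per array alone, and 4 passed with print-tip loess alone. Those 4 were Ndufb2 at 0.46, Ndufa8 at 0.45, Ndufa12 at 0.43 and Ndufb10 at 0.39 on the print-tip scale. The calls with print-tip loess also depended on which arrays were kept. All 9 stayed past the threshold without array 1 (8.57% of all clones were then higher) and 6 of the 9 without array 5 (5.95%), but 0 without array 2, 3, 4 or 6. That loss was shared by all genes, since 0.00354%, 0.00366%, 0.0683% and 0.00366% of all clones were then higher. At an unadjusted p under 0.05, 21, 25, 21 and 22 complex I and II clones were higher without array 2, 3, 4 and 6. These were out of 73, 71, 71 and 71 tested, where 13.8%, 15.4%, 13.6% and 17.8% of all clones were higher. The lower complex I and II clones numbered 1, 1, 2 and 4, against 1 on all 6 arrays. The shares of all clones that were then lower are not given here.

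**Figure D1:**
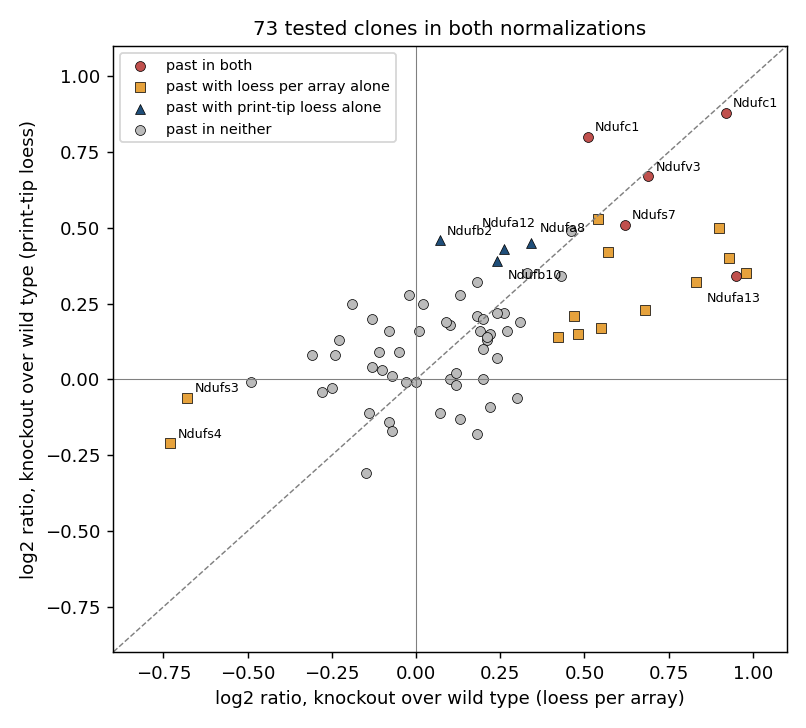
Log2 ratio of knockout over wild type of each of the 73 tested complex I and II clones, after loess per array (x axis) and after print-tip loess (y axis); the dashed line marks equal values and the marker shows where the limma test was past its threshold. The 5 clones past it in both sit in the upper right, while the Ndufs3 and Ndufs4 clones at -0.68 and -0.73 on the x axis lie at -0.06 and -0.21 on the y axis.

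The position of a clone on the slide moved with its ratio. Mean ratios of the other clones of a print block ran from -0.58 in block 1 to 0.56 in block 48 with loess per array. Over the 73 clones, which share the arrays and in part the blocks, the ratio correlated with the mean of the block at Pearson r = 0.69. Print-tip loess centres every block, so the r of -0.03 after it follows from its construction. Of the 16 higher clones 13 lay in blocks with a positive mean, and both lower clones, of Ndufs3 and Ndufs4, lay in blocks with means of -0.58 and -0.51. The Ndufc1 clones were the opposite case, with block means of -0.24 and -0.05. The part of the print block in the ratios without print-tip loess was not tested further.

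**Figure D2:**
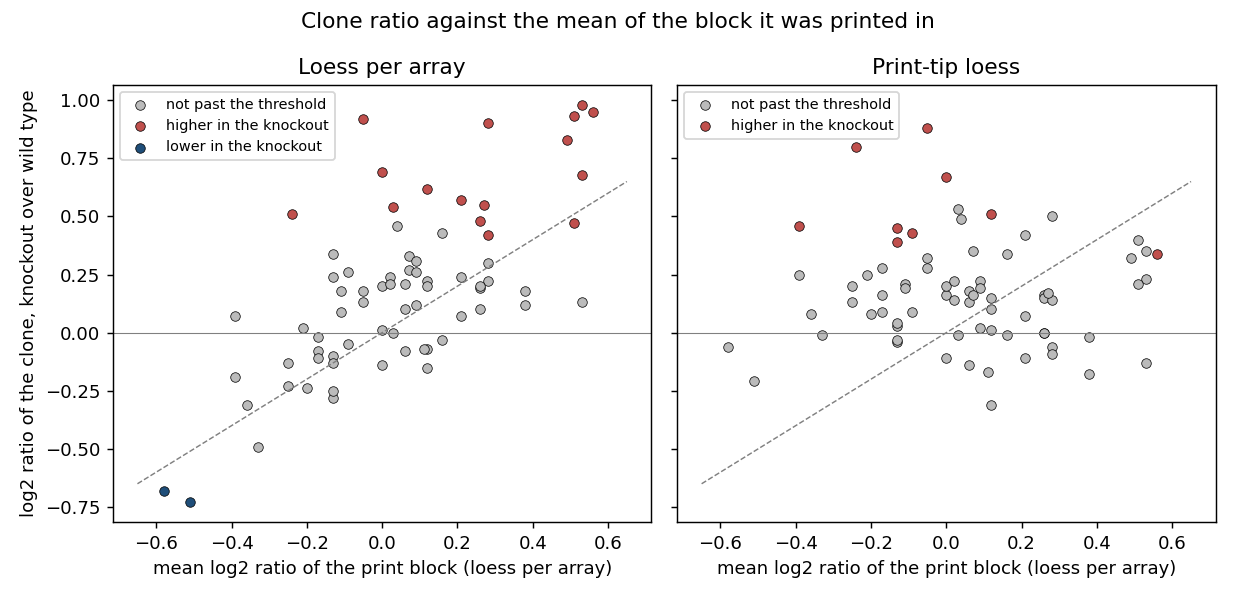
Log2 ratio of each tested complex I and II clone (y axis) against the mean ratio of the other clones of its print block (x axis), after loess per array (left) and print-tip loess (right); colours mark clones past the limma threshold and the dashed line marks a clone equal to its block mean. On the left the points follow the line (r = 0.69, n = 73); on the right each block was centred by the normalization itself, so r is near 0 (-0.03) by construction.

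Complex II was measured through 7 clones of 3 genes. With loess per array 2 were higher, 0 lower and 5 not past the threshold, where 16.2% of all clones were higher and 14.2% lower. With print-tip loess 0 passed, where 11.2% of all clones did. At an unadjusted p under 0.05, 2 were then higher and 0 lower, where 17.6% and 15.1% of all clones were. Sdha, the flavoprotein that oxidises succinate, had 2 clones. The clone of print block 47 read 0.05, 0.91, 0.83, 1.67, 0.52 and 1.41 on arrays 1 to 6. Every array was above 0, with array 1 nearly at 0 and arrays 4 and 6 highest. The mean was 0.90 ± 0.18 (1.86-fold, limma adjusted p = 0.00365), and 0.50 ± 0.15 with print-tip loess (adjusted p = 0.0548). The Sdha clone of block 12 read 0.01, 0.11, 0.02, 0.30, 0.09 and 0.69, again highest on array 6, with a mean of 0.20 ± 0.13 (limma adjusted p = 0.244).

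Sdhb carries the iron-sulfur clusters that pass electrons on to ubiquinone. The Sdhb clone of block 16 read 0.29, 0.97, 0.03, 0.93, 0.21 and 1.01 on arrays 1 to 6, a mean of 0.57 ± 0.15 (limma adjusted p = 0.0144) and of 0.42 ± 0.13 with print-tip loess (adjusted p = 0.0587). Without array 2 or 4 it was at 0.49 or 0.50 (limma adjusted p = 0.0514 and 0.0589), and with no quality filter at 0.29 (adjusted p = 0.101). Arrays 2, 4 and 6 stood apart from arrays 1, 3 and 5. On the former the net wild-type signal of the clone was faint, at 0.487, 0.429 and 0.455 times its local background. The Sdhb clone of block 23, whose wild-type signal was at least 1.99 times the background on every array, read 0.13, 0.00, -0.25, 0.26, 0.01 and 1.13. Array 6 alone was far above 0 there, and the mean was 0.21 ± 0.16 (limma adjusted p = 0.332).

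Sdhd, a membrane anchor of complex II, had 3 clones and none passed. In block 27 the clone had a mean of 0.31 ± 0.15, with a lowest array of -0.06 and a highest of 1.04. That of block 25 had a mean of 0.00 ± 0.16, between -0.53 and 0.78. The clone of block 14 had a mean of -0.24 ± 0.12, between -0.36 and 0.01, and of 0.08 ± 0.09 with print-tip loess. The 3 limma adjusted p-values were 0.141, 0.990 and 0.128. Clones of the same gene thus spread over 0.55 with loess per array and over 0.20 with print-tip loess, about 0.

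Promoters of nuclear respiratory genes are known for sites of the transcription factors NRF1 and GABP. The 250 bases before the start of Sdha (chr13:74350241-74350490, minus strand) and of Sdhd (chr9:50603850-50604099, minus strand) are shown as the complex II promoters that held such letters, 5′ to 3′ on the gene's strand, from RefSeq on GRCm38.p6. Capitals mark matches to the NRF1 core (GCGC, any base, T, GCGC) or to the GABP motif CCGGAAG on either strand.
Sdha: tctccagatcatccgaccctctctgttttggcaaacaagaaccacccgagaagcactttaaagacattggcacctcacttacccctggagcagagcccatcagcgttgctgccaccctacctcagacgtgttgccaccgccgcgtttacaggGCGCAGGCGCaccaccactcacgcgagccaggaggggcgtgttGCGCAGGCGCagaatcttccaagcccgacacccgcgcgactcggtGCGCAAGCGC
Sdhd: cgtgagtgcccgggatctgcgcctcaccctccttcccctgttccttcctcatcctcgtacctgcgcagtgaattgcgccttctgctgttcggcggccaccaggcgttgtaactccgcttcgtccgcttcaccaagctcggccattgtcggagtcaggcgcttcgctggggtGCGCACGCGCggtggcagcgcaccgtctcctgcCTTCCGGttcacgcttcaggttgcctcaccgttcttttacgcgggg
Sdha held 3 NRF1-core matches, beginning at -98, -55 and -10. Sdhd held 1 at -79 and a GABP match at -46. The Sdha clone past the threshold and the 3 Sdhd clones that were not past it thus belong to promoters that both hold the NRF1 core.

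The N module was measured through 14 clones of 9 genes, of which 2 were higher and 1 lower with loess per array. Over all clones these shares were 16.2% and 14.2%. With print-tip loess 2 were higher, where 6.62% of all clones were. With loess per array both higher clones were of Ndufv3, the supernumerary subunit of the NADH-binding flavoprotein part. Its clone of block 26 read -0.03, 0.74, 0.21, 1.05, 0.89 and 1.27 on arrays 1 to 6. Arrays 2, 4, 5 and 6 were high and array 1 was at 0. The mean was 0.69 ± 0.16 (1.61-fold, limma adjusted p = 0.00829), and 0.67 ± 0.13 with print-tip loess (adjusted p = 0.0255). Without arrays 2 and 4 it was at 0.58 (limma adjusted p = 0.0827). The Ndufv3 clone of block 43 was at 0.55 ± 0.15 (limma adjusted p = 0.015) and at 0.17 ± 0.10 with print-tip loess (adjusted p = 0.26).

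Ndufs4, a small subunit that holds the N module to the rest of complex I, had the lowest ratio of all 73 clones. Its clone of block 5 read -0.15, -0.98, -0.84, -0.81, -0.74 and -0.84 on arrays 1 to 6. Every array was below 0 and array 1 stood nearest to it. The mean was -0.73 ± 0.13 (1.65-fold lower, limma adjusted p = 0.00231), and -0.21 ± 0.10 with print-tip loess (adjusted p = 0.174). The Ndufs4 clone of block 38 was at 0.27 ± 0.12, which did not pass (adjusted p = 0.105). These clones were 1.00 apart with loess per array and 0.36 apart with print-tip loess.

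The other N module clones did not pass with loess per array. Ndufv1, which binds NADH and FMN, was at 0.09 (1 tested clone of 2) and Ndufv2, its iron-sulfur partner, at 0.24 (1 of 2). Ndufs1, the largest core subunit, was at -0.15 through its 1 clone and at -0.31 ± 0.09 with print-tip loess (limma adjusted p = 0.058), the lowest print-tip value of the 73 clones. Of the supernumerary subunits, Ndufa6 (1 clone) was at 0.24, Ndufs6 at 0.12 in both of its 2 clones, and Ndufa7 (2 clones) at -0.49 and 0.19, the second being titled in the scanner files as hippocalcin-like. Ndufa12 (2 clones) was at 0.26 and 0.30, and its clone of block 11 passed with print-tip loess at 0.43 ± 0.12 (adjusted p = 0.0459).

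In the Q module, 7 clones of 3 genes were tested, with 2 higher and 1 lower, where 16.2% and 14.2% of all clones were. With print-tip loess 1 was higher, where 6.62% of all clones were. Ndufs7 carries the last iron-sulfur cluster before ubiquinone. Its clone of block 33, measured on 5 arrays, read 0.04, 1.52, 0.38, 0.76 and 0.41 on arrays 1 to 5, all above 0 with array 2 highest. The mean was 0.62 ± 0.19 (limma adjusted p = 0.0256), and 0.51 ± 0.14 with print-tip loess (adjusted p = 0.0496). Without array 2 it was at 0.40 (limma adjusted p = 0.108), and without array 4 at 0.59 (adjusted p = 0.081). On both of these arrays the net wild-type signal of the clone was smaller than its background. The Ndufs7 clone of block 47 was at 0.42 ± 0.14 (limma adjusted p = 0.0343) and at 0.14 ± 0.10 with print-tip loess.

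Ndufs3, a core subunit of the Q module, was the other lower clone. In block 1 it read -0.34, -0.63, -0.79, -1.26, -0.71 and -0.37 on arrays 1 to 6, below 0 on every array. The mean was -0.68 ± 0.14 (limma adjusted p = 0.00375), and -0.55 without arrays 2 and 4 (adjusted p = 0.0515). With print-tip loess it was -0.06 ± 0.10 (adjusted p = 0.682), with 2 arrays above 0 and 4 below. The Ndufs3 clone of block 9 was at -0.19 with loess per array and 0.25 with print-tip loess, and neither passed; its remaining clone was untested. The 3 clones of Ndufs8, an iron-sulfur core subunit, lay between 0.02 and 0.18, and between 0.25 and 0.32 with print-tip loess, and none passed.

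The membrane arm had the most clones, 34 of 20 genes, with 8 higher and 0 lower, where 16.2% and 14.2% of all clones were. With print-tip loess 6 were higher, where 6.62% of all clones were. In either direction 23.5% of the arm passed with loess per array, against 30.3% of all clones. The median of the arm was 0.16, and 0.19 with print-tip loess. Ndufc1, a small subunit of the arm, was the gene with both clones past the threshold in both normalizations. In block 15 the Ndufc1 clone read 0.03, 1.72, 0.12, 1.64, 0.27 and 1.73 on arrays 1 to 6. Arrays 2, 4 and 6 did not overlap with arrays 1, 3 and 5, which lay near 0. The mean was 0.92 ± 0.24 (1.89-fold, limma adjusted p = 0.0114), and 0.88 ± 0.25 with print-tip loess (adjusted p = 0.0494).

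The second Ndufc1 clone, in block 13, gave the same division of the arrays: 0.05, 0.90, 0.15, 1.00, 0.07 and 0.87. Its mean was 0.51 ± 0.16 (limma adjusted p = 0.0266), and 0.80 ± 0.17 with print-tip loess (adjusted p = 0.0291). Both clones were bright, with a wild-type signal up to 34.6 (block 15) and 58.3 (block 13) times the local background on array 1. In the authors' deposited table of ratios, which subtracted the background again and was here centred on each array's median, these clones were at -0.05 (block 15) and -0.95 (block 13), and neither passed. Without arrays 2 and 4 together they were at 0.54 (adjusted p = 0.157) and 0.29 (adjusted p = 0.33). The block 13 clone also fell short of the threshold without array 2, 4 or 6, with normexp (adjusted p = 0.0642) and with no quality filter (adjusted p = 0.0593), and was at 0.19 with median centring (limma adjusted p = 0.345).

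The 250 bases before the start of Ndufc1 (chr3:51408956-51409205, minus strand) and of Ndufv3 (chr17:31519865-31520114, plus strand) are shown. Each of these genes had at least 1 clone past the threshold in both normalizations. So did Ndufs7 and Ndufa13, which are not shown. Neither promoter shown held the NRF1 core, the GABP motif or the CRE motif TGACGTCA, which cAMP-responsive factors bind. No letters are therefore in capitals.
Ndufc1: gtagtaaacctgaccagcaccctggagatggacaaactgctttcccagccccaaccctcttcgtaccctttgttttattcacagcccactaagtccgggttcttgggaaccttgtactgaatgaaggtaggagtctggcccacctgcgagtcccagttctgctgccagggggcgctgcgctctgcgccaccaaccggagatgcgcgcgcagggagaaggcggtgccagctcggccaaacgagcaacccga
Ndufv3: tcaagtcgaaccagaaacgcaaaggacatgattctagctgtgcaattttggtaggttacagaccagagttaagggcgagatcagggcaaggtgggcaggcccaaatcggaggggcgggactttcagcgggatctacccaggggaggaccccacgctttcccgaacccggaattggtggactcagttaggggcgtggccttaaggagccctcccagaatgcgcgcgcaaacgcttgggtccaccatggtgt
No match says only that these letters are not in this window.

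Ndufa13, a subunit of the membrane arm also known as GRIM-19, had the smallest adjusted p of the clones given in full. Its block 48 clone read 1.08, 0.81, 1.23, 1.07, 0.64 and 0.87 on arrays 1 to 6, with no division between arrays. The mean was 0.95 ± 0.12 (1.93-fold, limma adjusted p = 0.000537), and 0.34 ± 0.08 with print-tip loess (adjusted p = 0.0367), above 0 on 6 of 6 arrays in both. Its block had the highest mean of the array, 0.56. The other Ndufa13 clone was untested.

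Ndufa9, which sits near the ubiquinone site and was counted here with the membrane arm, had the highest ratio of all 73 clones. Both its clones lay in block 40, whose mean was 0.53. One read 0.99, 1.17, 1.23, 1.13, 0.52 and 0.86 on arrays 1 to 6, a mean of 0.98 ± 0.13 (limma adjusted p = 0.000561), and 0.35 ± 0.11 with print-tip loess (adjusted p = 0.0593). Its title in the scanner files is that of a sine oculis homeobox gene, which conflicts with the gene assigned to it. The other read 0.66, 0.91, 0.81, 0.51, 0.85 and 0.34, a mean of 0.68 ± 0.12 (limma adjusted p = 0.00231), and 0.23 ± 0.09 with print-tip loess (adjusted p = 0.122). Every array of both clones was above 0 with loess per array.

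The 2 clones of Ndufb10, a subunit of the distal membrane arm, were 0.68 apart with loess per array and 0.02 apart with print-tip loess. In block 44 the gene read 1.00, 0.58, 0.97, 1.49, 0.24 and 1.28 on arrays 1 to 6, a mean of 0.93 ± 0.16 (limma adjusted p = 0.00169). The clone of block 18 was at 0.24 ± 0.13 (adjusted p = 0.164). With print-tip loess the values were 0.40 ± 0.14 (adjusted p = 0.0758) and 0.39 ± 0.09 (adjusted p = 0.0367), and the second alone passed. The difference between the clones was not tested.

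Among the rest of the membrane arm, Ndufab1, the mitochondrial acyl carrier protein, was higher at 0.54 ± 0.18 (1 tested clone of 2, limma adjusted p = 0.0375) and stood at 0.53 ± 0.17 with print-tip loess (adjusted p = 0.0715). Ndufb5 was higher at 0.47 ± 0.14 in the clone of block 44 (limma adjusted p = 0.0262) and at -0.08 in that of block 19, with another 2 clones untested. With print-tip loess alone, 1 of the 2 Ndufa8 clones and the 1 Ndufb2 clone passed. Ndufb2 was at 0.07 with loess per array and 0.46 ± 0.12 with print-tip loess (adjusted p = 0.0374), in a block with a mean of -0.39. The remaining genes did not pass in either normalization. They were Ndufa3, Ndufb3, Ndufb4, Ndufb8 and Ndufs5 with 1 clone each, Ndufa10 and Ndufb6 with 1 tested clone of 2, Ndufb11 and Ndufc2 with 2 of 3, Ndufa11 and Ndufb9 with 3 each, and Ndufb7 with 4. The lowest of them was Ndufb6 at -0.31, which was at 0.08 with print-tip loess, and the highest Ndufb9 at 0.46, in its clone of block 34. The scanner files title the tested Ndufb6 clone as a serine palmitoyltransferase subunit and the Ndufb8 clone as pantophysin.

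**Figure D3:**
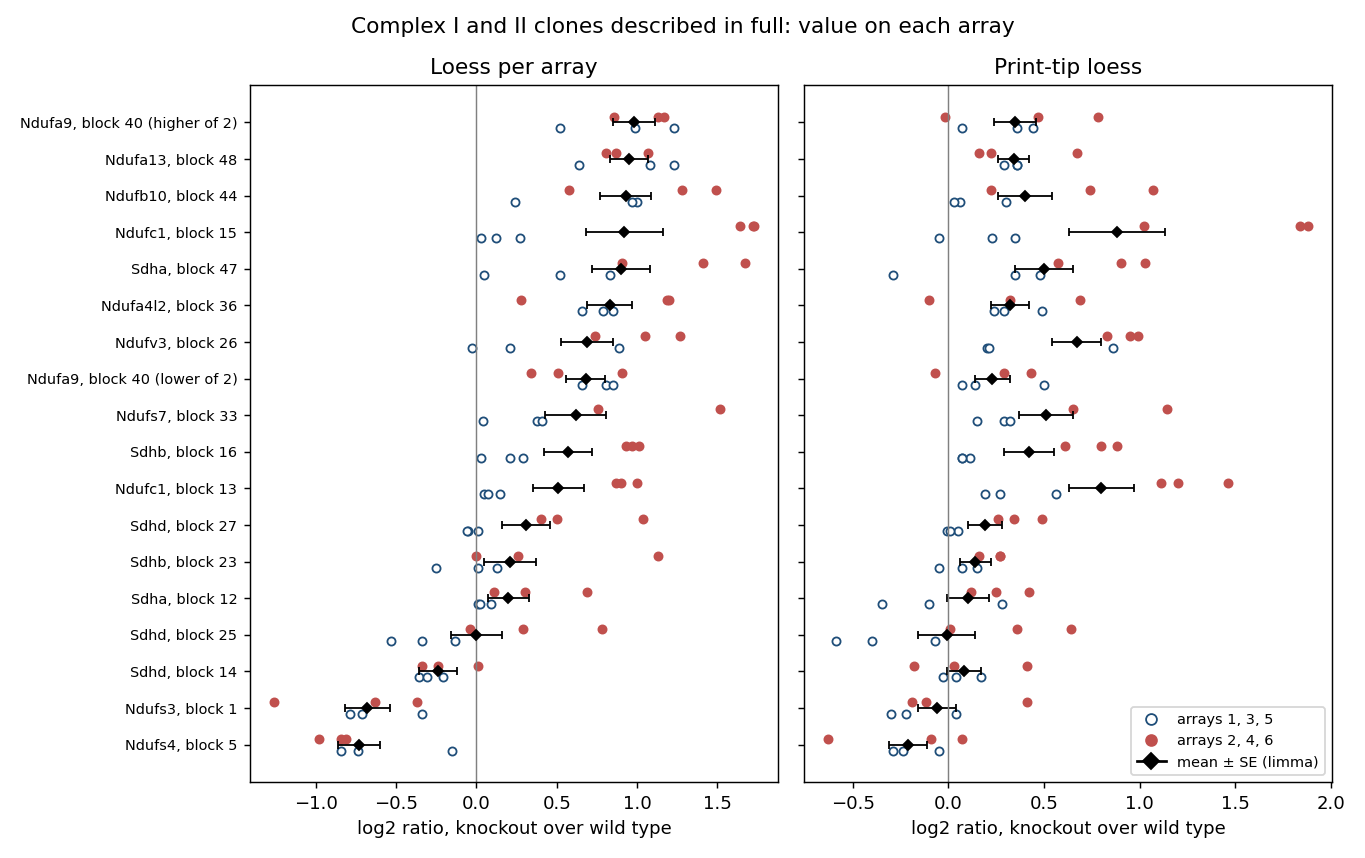
Log2 ratio of knockout over wild type on each array for the 18 clones given in full, after loess per array (left) and print-tip loess (right); open circles are arrays 1, 3 and 5, filled circles arrays 2, 4 and 6, and diamonds the mean with its limma SE. For the Ndufc1 clones the filled circles lie at 0.87 or above on the left and the open ones at 0.27 or below, while the Ndufa13 clone shows no such division.

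The assembly factors taken in by the prefix, which build complex I without being part of it, had 7 tested clones. Their median was -0.10 with loess per array and 0.03 with print-tip loess. Of the 7 clones 1 was higher and 0 lower with loess per array, where 16.2% and 14.2% of all clones were. The higher one was a Ndufaf1 clone at 0.48 ± 0.14 (limma adjusted p = 0.0175), titled in the scanner files as reticulon 3, and at 0.15 with print-tip loess. The other tested Ndufaf1 clone was at 0.22, and at -0.09 with print-tip loess, and the remaining one was untested. Ndufaf3, with 2 tested clones of 3, was at -0.28 and -0.25, and at -0.04 and -0.03 with print-tip loess. Ndufaf4, Ndufaf5 and Ndufaf8, with 1 clone each, were at -0.10, 0.33 and -0.23, and at 0.03, 0.35 and 0.13 with print-tip loess. With print-tip loess 0 of the 7 passed, where 11.2% of all clones did. At an unadjusted p under 0.05, 1 was then higher and 0 lower, where 17.6% and 15.1% of all clones were.

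Ndufa4l2, a paralog of Ndufa4 known to be induced by hypoxia, had 2 clones. The clone of block 36 read 0.85, 0.28, 0.66, 1.20, 0.79 and 1.19 on arrays 1 to 6, all above 0 with array 2 lowest. The mean was 0.83 ± 0.14 (1.77-fold, limma adjusted p = 0.00164), and 0.32 ± 0.10 with print-tip loess (adjusted p = 0.065). The clone of block 22 was at 0.18, and Ndufa4, with 1 clone, at 0.01. The pseudogene Ndufs5-ps, with 1 clone, was at 0.22; a transcript of Ndufs5, which was at 0.26, could bind to it, so the pair is uncertain. None of these 3 clones passed in either normalization.

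By class, 2 of 10 core subunit clones were higher and 1 lower, with a median of 0.11, and 10 of 45 supernumerary clones were higher and 1 lower, with a median of 0.19. With print-tip loess the counts were 1 of 10 and 8 of 45 higher with 0 lower in either class, and medians of 0.23 and 0.16. The order of these medians turned with the normalization. Among all clones 16.2% were higher and 14.2% lower with loess per array, and 6.62% and 4.53% with print-tip loess.

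Of the 43 tested genes 24 had at least 2 tested clones, which gives a measure of the same gene at different places on the slide. All clones of a gene were higher for 4 genes with loess per array (Ndufa9, Ndufc1, Ndufs7 and Ndufv3), and for Ndufc1 with print-tip loess. At least 1 clone passed for 12 of the 24 genes with loess per array. Each of these genes had 2 or more clones that could pass. The 30.3% of all single clones that passed in either direction is therefore no measure for this count. Clones of a gene had the same sign for 16 genes, and for 13 with print-tip loess. The same counts over all genes of the array are not given here. Agreement between clones beyond that of other genes can therefore not be read from these counts. The range between clones of a gene had a median of 0.32 and reached 1.00 for Ndufs4; with print-tip loess the median was 0.22 and the largest range was 0.66, for Ndufb9.

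**Figure D4:**
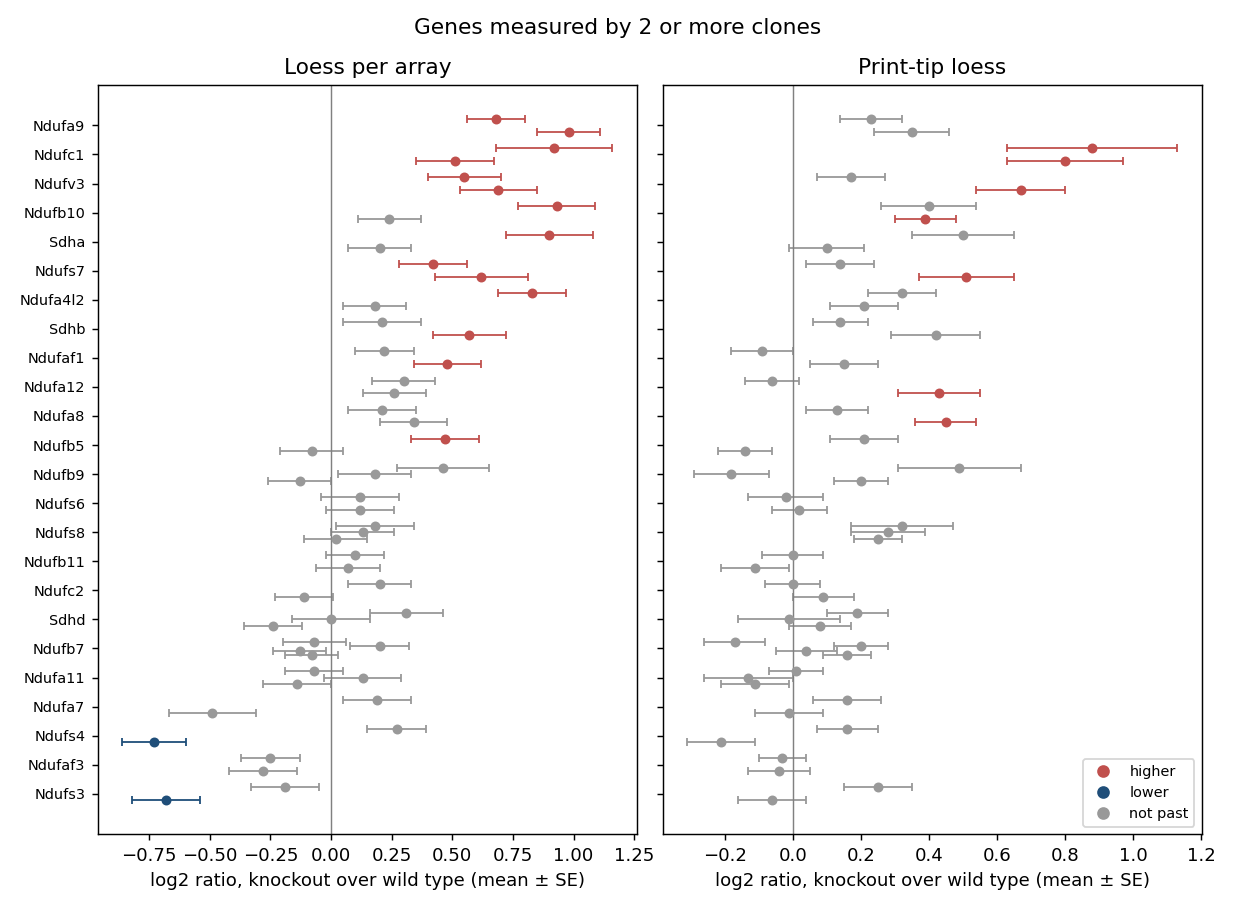
Log2 ratio of knockout over wild type (mean ± limma SE) of every tested clone of the 24 genes measured by 2 or more clones, after loess per array (left) and print-tip loess (right); red marks clones past the threshold as higher and blue as lower. Ndufs4, with clones at -0.73 and 0.27 on the left, spans the widest range there, and both Ndufc1 clones are red in both panels.

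The upward shift was not equal on the 6 arrays. The median of the measured clones was 0.05, 0.12, 0.03, 0.26, 0.04 and 0.32 on arrays 1 to 6, and 0.07, 0.16, 0.06, 0.22, 0.05 and 0.32 with print-tip loess. Arrays 2, 4 and 6, the 3 with the weakest wild-type signal, had the highest medians. Their mean was above that of arrays 1, 3 and 5 for 51 of 73 clones (69.9%), against 50.9% of all clones. This division was chosen after the values were seen.

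With arrays 1, 3 and 5 alone, 5 clones were higher and 2 lower (5.97% and 1.62% of all clones), and the median of the complex I and II clones was 0.05. With arrays 2, 4 and 6 alone, 14 were higher and 2 lower (15.2% and 11.8% of all), with a median of 0.28. Without arrays 2 and 4, the counts were 6 and 1 (6.19% and 2.38% of all) and the median 0.19. With print-tip loess as well, 0 were higher and 0 lower (0.321% and 0.0193% of all), with a median of 0.15. At an unadjusted p under 0.05, 14 were then higher and 1 lower, where 10.6% and 7.81% of all clones were. Leaving out single arrays gave 9 higher clones without array 2 (12% of all clones) and 8 without array 4 (9.47%), down from 16. Of the 18 clones past the threshold on 6 arrays, 11 remained past it without array 2 and 10 without array 4. A further filter kept only spots with the net signal of both channels larger than the local background. With it, 12 of the 63 clones then tested were higher and 2 lower (16.2% and 14% of all clones) and the median was 0.11.

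**Figure D5:**
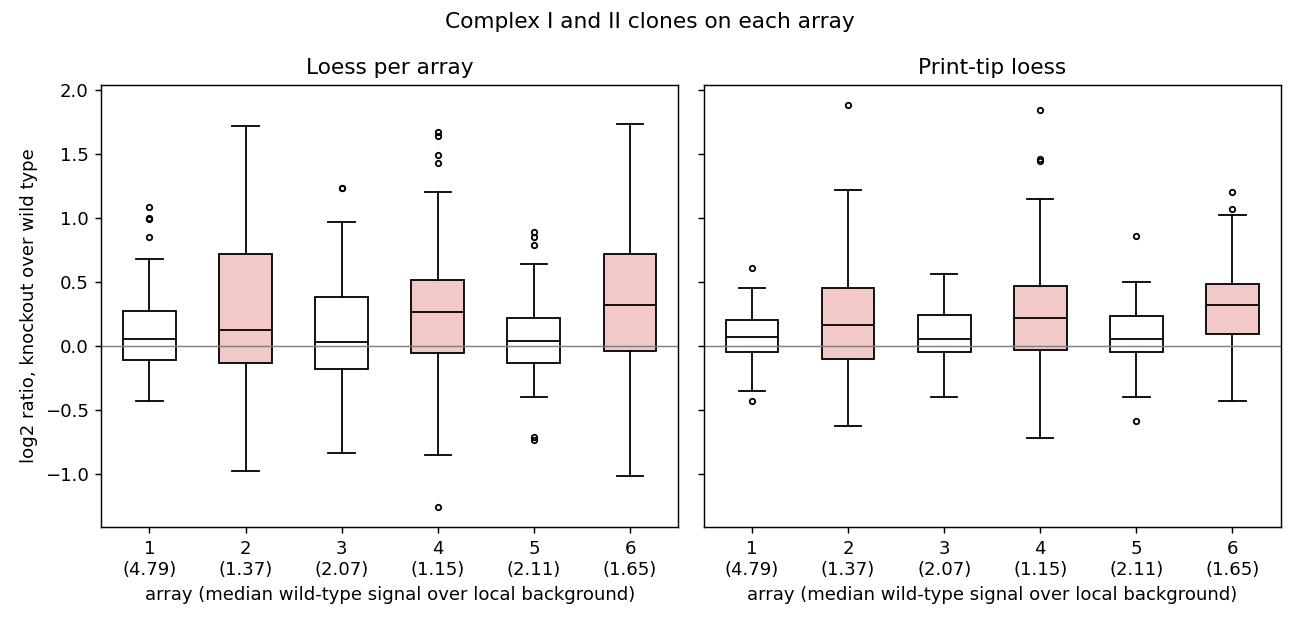
Log2 ratios of the tested complex I and II clones on each array, after loess per array (left) and print-tip loess (right); boxes span the quartiles with the median as a line, whiskers reach 1.5 times the box height, circles lie beyond, and the number in brackets is the array's median wild-type signal over local background. Medians are highest on array 6 (0.32 in both panels), and the boxes of arrays 2, 4 and 6, which are shaded, are the taller ones on the right.

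Over the 41 promoters of the 40 member genes matched in the RefSeq table, searched on both strands, the NRF1 core lay within 250 bases before the start of 8 (19.5%), against 3.74% of 32851 promoters of the same length. These were the promoters of Ndufa8, Ndufa11, Ndufaf4, Ndufb4, Ndufs5, Ndufs6, Sdha and Sdhd. The GABP motif CCGGAAG was in 6 (14.6%, against 6.91%), those of Ndufaf1, Ndufaf8, Ndufb6, Ndufb7, Ndufs3 and Sdhd. The CRE motif TGACGTCA was in 3 (7.32%, against 1.55%), those of Ndufa10, Ndufa11 and Ndufb2. Of the 5 clones past the threshold in both normalizations, those of Ndufc1, Ndufv3, Ndufs7 and Ndufa13, none belonged to a promoter with any of these motifs. A match is a description of letters, and no factor was measured.

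Related genes were described as lists, to be read beside 16.2% higher and 14.2% lower among all clones, and 6.62% and 4.53% with print-tip loess. Of the citric acid cycle, which feeds both complexes, 38 clones of 12 genes were tested, and 15 were higher and 5 lower, with 4 higher and 0 lower with print-tip loess. The median was 0.29, and 0.22 with print-tip loess. The 4 clones past the threshold in both were of Mdh2, malate dehydrogenase, at 0.61 and 0.44, Ogdh, of the oxoglutarate dehydrogenase complex, at 0.67, and Suclg1, of succinyl-CoA ligase, at 0.43. Another Ogdh clone, in block 13, was lower at -0.32 (limma adjusted p = 0.0455). Complex II assembly factors had 5 tested clones with 1 higher: Sdhaf1, which helps to insert the iron-sulfur clusters of Sdhb, at 0.87 ± 0.21 (limma adjusted p = 0.00903), and at 0.68 with print-tip loess (adjusted p = 0.048). A Sdhaf2 clone, of the factor that attaches flavin to Sdha, passed as lower with print-tip loess alone, at -0.30. It was at 0.03 with loess per array. The other tested Sdhaf2 clones were at 0.01, 0.15 and 0.26 with print-tip loess and did not pass.

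Complex I assembly factors outside the prefixes had 15 tested clones with 0 higher and 1 lower, Tmem70 at -0.49, which was at -0.26 and not past the threshold with print-tip loess. Regulators of mitochondrial gene expression had 20 tested clones with 1 higher and 3 lower, and 0 higher and 1 lower with print-tip loess. Tfb2m, a mitochondrial transcription factor, was the one past the threshold in both, in its block 13 clone at -0.65 and, with print-tip loess, -0.40. Its block 9 clone was at -0.67 and, not past the threshold with print-tip loess, -0.26. The Tfb2m clone of block 32 was at 0.36 and -0.18 and passed in neither. Other electron donors to ubiquinone and carriers had 15 tested clones with 1 higher, Coq9 of ubiquinone synthesis at 0.59, and 2 higher with print-tip loess, Coq9 and Sqor. With print-tip loess Sqor was at 0.44 in that clone and at -0.26 in its block 45 clone. The Coq9 clone of block 45 was at 0.08, and neither block 45 clone passed. The complex I subunits encoded by mitochondrial DNA had no clone.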

How the data were processed

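The members, the related lists and the tests were chosen with earlier results of these data known. Scanning used a GenePix 4000A and image analysis used IPLab with a FileMaker Pro database, per the design text of the series, which also states background subtraction and a minimum quality of 0.3. Tool versions are not given in the sources used here. The authors deposited red and green intensity values per spot (37632 spots on each of the 6 arrays); in both channels the median of the 768 empty positions was 1, so the local background was already subtracted. The deposited quality score of each spot lies between 0 and 1. The deposited calibration constant divides each array's ratio. The authors' value table holds log2 ratios of red over green, not centred, and equalled the log2 ratio recomputed after a second background subtraction in 2245 of 2245 rows with a shared clone (within 0.002).

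Ratios of knockout over wild type were computed from the intensities, raised to at least 1, for spots with a quality above 0.3, with 1217 control or empty spots left out. They were normalized by loess per array (limma 3.58.1, R 4.3.3), averaged over spots of a clone, and tested against 0 with lmFit and eBayes for clones on at least 4 arrays, p-values being adjusted by Benjamini-Hochberg over all 28614 tested clones (threshold 0.05). Print-tip loess was an alternative. The fitting code was tested on simulated data with known changes. Tables were made with Python 3.11.15. Clones were named through the platform annotation, linked by values (35793 of 35873 rows): 22364 clones had 1 gene, 1105 several and 12427 none listed. Named in full were all complex II clones, the 8 largest higher and 8 largest lower ratios among called clones that kept 1 sign on every array, and clones past the threshold in both normalizations. Promoters came from RefSeq (GRCm38.p6), matched by symbol for 40 of 45 genes, with -1 as the base before the start. Alternatives covered the normalization, background, quality and signal filters, the number of arrays, the authors' table and arrays left out. Divisions of the arrays into 1, 3 and 5 against 2, 4 and 6, and leaving out clones titled as another gene, were added after the values were seen.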

Additional observations from a re-analysis of the deposited data

Results flagged for a closer look

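In 19 groups of array values (the 18 clones given in full and the per-array medians), 2 had an array whose gap to the nearest other array was a larger share of the whole range than Dixon's 95% limit; chance alone gives about 1 in 20. The Ndufs4 clone of print block 5 stood at -0.15 on array 1, with the other 5 arrays between -0.98 and -0.74 (gap over range 0.711). The Sdhb clone of print block 23 stood at 1.13 on array 6, with the other 5 arrays between -0.25 and 0.26 (gap over range 0.631). Array 1 had the strongest wild-type signal, at 4.79 times the background, and array 6 had 1.65 times. Their part in these values was not tested.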

How the results depend on the processing

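The number of higher clones, 16 with loess per array, was 9 with print-tip loess, 10 with normexp (offset 50), 6 without arrays 2 and 4, 0 without arrays 2 and 4 with print-tip loess, and 5 with arrays 1, 3 and 5 alone. Normexp subtracted the background a second time, and 19.6% of all clones then passed in either direction, against 30.3% with loess per array. The number of lower clones, 2, was 0 with print-tip loess, 4 in the authors' table, 1 without arrays 2 and 4 and 0 there with print-tip loess. The median of 0.18 was 0.93 in the authors' table, 0.05 with arrays 1, 3 and 5 alone, and 0.11 both with normexp and with both channels above background. The authors' table covered 89 complex I and II clones instead of 73, and 27.8% of all its clones passed in either direction. Of the 18 clones past the threshold with loess per array, 4 stayed past it in that table and 2 turned sign. Leaving out each array gave 8 to 17 higher clones, 2 to 3 lower ones and medians of 0.12 to 0.20 with loess per array. With print-tip loess it gave 0 to 12 higher, 0 lower and medians of 0.13 to 0.19. The other alternatives kept the counts within 1.5 times. Why the counts differ was not tested. The 18 clones given in full kept their direction and side of the threshold in 281 of 426 fits, lost the threshold in 120, gained it in 1 and turned sign in 24. The clones given in full are not the same 18 as those past the threshold with loess per array. They include 5 complex II clones that were not past it and so could not lose it. The 281 fits therefore do not measure the stability of the calls alone.

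Signs turned for these clones. In the authors' table the Ndufc1 clones of blocks 13 and 15 were at -0.95 and -0.05, the Sdhb clone of block 23 at -0.57 and the Sdhd clone of block 14 at 0.93. With arrays 1, 3 and 5 alone, the Sdhb clone of block 23 was at -0.04 and the Sdhd clones of blocks 25 and 27 at -0.33 and -0.03. The Sdhd clone of block 14 was at 0.08 with print-tip loess, at -0.29 to 0.13 without single arrays over both normalizations and at 0.00 without arrays 2 and 4 with print-tip loess. The Sdhd clone of block 25, at 0.00 with loess per array, was at -0.01 with print-tip loess, at -0.13 with both channels above background, at -0.18 without arrays 2 and 4 and at -0.10 there with print-tip loess. Without single arrays it lay at -0.15 to 0.11 over both normalizations. The ratio within an array already pairs the genotypes, so no further replicate block was fitted. A faint wild-type signal limits what the arrays can show: 2 tested clones, of Ndufa4 and Ndufs6, had a net signal smaller than the local background on 4 arrays.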
